A study of Mus musculus with 3 samples.

Results

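The AP-1 transcription factors were described in cultured mouse cortical neurons through their 7 Fos and Jun family genes (Fos, Fosb, Fosl1, Fosl2, Jun, Junb and Jund), which were taken by name from the 54232 gene identifiers counted in each library. RNA-seq counts came from 3 libraries of wildtype CD1 cortical neurons, 1 per group. In the IKVAV PA + PEDOT-S group, neurons had a further component beside a peptide amphiphile, a lipid-tailed peptide that assembles into nanofibres and here displays the laminin sequence IKVAV. That component is PS2 in the title and PEDOT-S_OH in the library name, and is taken here to be the sulfonated conducting polymer PEDOT-S. The IKVAV PA library had the peptide amphiphile alone. The PDL control library is the control of the series by its title, where PDL is not written out. The treatment field reads peptide amphiphile for all 3, the control included. The labels used here state no age, time in culture or number of animals pooled. Each library is labelled repeat 3, and other repeats were not analysed here. No test between groups could therefore be made, and every difference below describes 3 libraries. All intervals cover counting error only.

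Totals were 79057998 counts for IKVAV PA + PEDOT-S, 124425958 for IKVAV PA and 78993105 for the PDL control. The neuron markers (7 of 7 measured) summed to 5890, 6092 and 6024 CPM in that order, where CPM is the count scaled to library size. Astrocyte markers (8 of 8 measured) summed to 90.7, 71.2 and 223 CPM, meningeal fibroblast markers (6 of 7 measured) to 23.8, 52.9 and 136 CPM, and dividing cell markers (7 of 7 measured) to 34.6, 36.8 and 115 CPM. Of the astrocyte sums, Fabp7 alone made up 39.9, 29.6 and 112 CPM. The astrocyte marker Gfap went the other way, at 1.40, 0.499 and 0.403 CPM, while the remaining 7 were highest in the PDL control. Oligodendrocyte lineage markers summed to 94.0, 73.3 and 100 CPM, while 1 of 7 microglia and 3 of 6 endothelial markers were measured. Non-neuronal RNA thus differed between the libraries, and its part in the values below was not tested. In such bulk samples, fewer cells of a type and less RNA per cell cannot be told apart.

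AP-1 is a dimer of basic leucine zipper proteins. Fos proteins pair with Jun proteins, whereas Jun proteins also pair with each other, and the dimers bind the TPA response element and related DNA motifs. Most of the family are immediate early genes, transcribed within minutes of calcium entry or growth factor signals without new protein synthesis, and Fos is widely used as a marker of recently active neurons. Jund is less inducible in many cells, and Fosl1 and Fosl2 (the genes of Fra-1 and Fra-2) tend to respond later than Fos.

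Of the 7 members, none was lowest in the IKVAV PA + PEDOT-S library, 5 were lowest in the IKVAV PA library and 2 in the PDL control library, beside 35.3%, 33.4% and 31.2% of all 13884 genes tested. The highest level was in IKVAV PA + PEDOT-S for 5 members, in IKVAV PA for 1 (Fosl1) and in the PDL control for 1 (Fos), beside 36.5%, 31.8% and 31.8% of all genes. The 5 lowest in IKVAV PA were Fos, Fosb, Fosl2, Jun and Junb. Each of them was lower in IKVAV PA than in the PDL control, and higher with PEDOT-S than in IKVAV PA, beyond counting error in both cases. Of all genes, 14.3% met both conditions. Both comparisons use the IKVAV PA library, so a low level in that one library enters both. Differences were small. None of the 7 members lay past 1.5-fold beyond counting error in any comparison. The background for that rule was 4.21% of all genes for IKVAV PA + PEDOT-S against the PDL control, 3.96% for IKVAV PA against the PDL control and 2.35% for IKVAV PA + PEDOT-S against IKVAV PA, so that 0 of 7 is no result about the members. By direction, in the same order, 0.447%, 0.54% and 0.331% of all genes were higher and 3.76%, 3.42% and 2.02% lower by that rule. The IKVAV PA library was also the deepest, and with all libraries thinned to the smallest total all 5 of these genes stayed lower there than in the PDL control beyond counting error. Random thinning keeps the expected share of each gene in its library, so that outcome was largely fixed in advance.

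**Figure D1:**
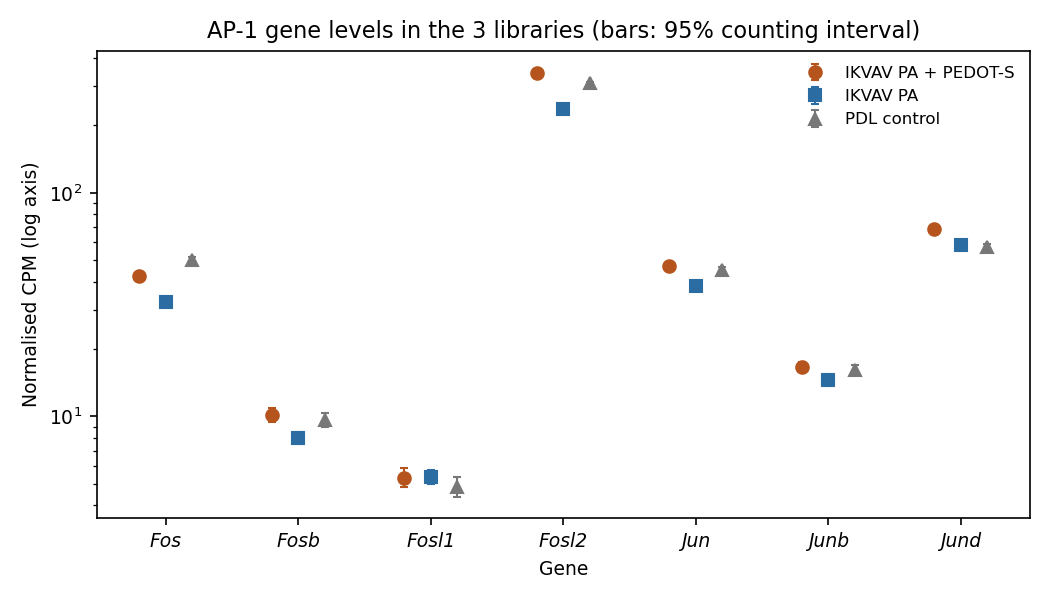
Normalised CPM (log axis) of the 7 AP-1 genes in the IKVAV PA + PEDOT-S (circles), IKVAV PA (squares) and PDL control (triangles) libraries, 1 library each, with 95% counting intervals as bars. Fos, Fosb, Fosl2, Jun and Junb have their lowest point in IKVAV PA, and Fos alone has its highest point in the PDL control.

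Fos, the partner in AP-1 that is induced fastest, lies on chr12:85473890-85477273 (GRCm38, plus strand) and shares no exonic base with another gene. It had 42.5 CPM in IKVAV PA + PEDOT-S, 32.4 CPM in IKVAV PA and 50.05 CPM in the PDL control (3318, 4025 and 3978 counts). It was the single member with its highest level in the PDL control library. The log2 ratio of IKVAV PA to the PDL control was -0.63 (95% counting interval -0.69 to -0.57), and 4.71% of all genes had a ratio as low or lower. The bound nearest to no difference fell just short of 1.5-fold, which is 0.58 on this scale. IKVAV PA + PEDOT-S stood between the other libraries, at -0.24 (-0.30 to -0.17) against the PDL control and 0.39 (0.33 to 0.46) against IKVAV PA.

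Fosb, on chr7:19302696-19310051 (minus strand), encodes FosB and, by alternative splicing, the truncated and stable ΔFosB, which gene counts do not separate. Its levels were 10.2 CPM in IKVAV PA + PEDOT-S, 8.001 CPM in IKVAV PA and 9.59 CPM in the PDL control (794, 995 and 762 counts). IKVAV PA was the low library, at -0.26 (-0.40 to -0.12) against the PDL control. Against the PDL control, IKVAV PA + PEDOT-S did not differ beyond counting error (0.08, interval -0.06 to 0.23), and against IKVAV PA it was higher by 0.34 (0.21 to 0.48).

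Fosl2, on chr5:32135801-32157842 (plus strand), gave the largest difference between the scaffolds among the 7 members. It stood at 343 CPM in IKVAV PA + PEDOT-S, 237 CPM in IKVAV PA and 309 CPM in the PDL control, from 26786, 29506 and 24535 counts. IKVAV PA + PEDOT-S was highest and IKVAV PA lowest, with no overlap of the counting intervals. The ratio between the scaffolds was 0.53 (0.51 to 0.56), or 1.45-fold, and 1.36% of all genes had a ratio as high or higher. Against the PDL control, IKVAV PA + PEDOT-S was at 0.15 (0.13 to 0.18) and IKVAV PA at -0.38 (-0.40 to -0.36). Fosl2 and Fos therefore differed in which of the IKVAV PA + PEDOT-S and PDL control libraries was higher.

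Fosl1, on chr19:5447547-5455946 (plus strand), is described mainly in dividing, migrating and tumour cells. It was the member with the fewest counts, with 5.31 CPM in IKVAV PA + PEDOT-S, 5.36 CPM in IKVAV PA and 4.84 CPM in the PDL control (415, 666 and 385 counts). No pair of libraries differed beyond counting error, the widest ratio being 0.14 for IKVAV PA against the PDL control (-0.04 to 0.33). Of its exonic bases, 57.2% are shared with Ccdc85b on the other strand, which had 29.8, 27.9 and 23.9 CPM in the same order of libraries and was higher in both scaffold libraries than in the PDL control (0.32, interval 0.23 to 0.41 with PEDOT-S, and 0.23, interval 0.15 to 0.31, without).

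Jun, the c-Jun gene and the main partner of Fos, lies on chr4:95049034-95052222 (minus strand) as a single exon. It had 47.2 CPM in IKVAV PA + PEDOT-S, 38.1 CPM in IKVAV PA and 45.3 CPM in the PDL control (3687, 4740 and 3597 counts). The IKVAV PA library was again low, at -0.25 (-0.31 to -0.18) against the PDL control, and the IKVAV PA + PEDOT-S library did not differ from the PDL control beyond counting error (0.06, interval -0.01 to 0.13). Between the scaffolds the ratio was 0.31 (0.25 to 0.37). Over the 3 libraries the profile of Jun lay closest to that of Fosb among the members, at a distance of 0.0264 (the root of the summed squared differences of log2 CPM, each gene centred on its own mean), against 0.283 between Jun and Fos. The counting interval of Fosb in IKVAV PA against the PDL control, -0.40 to -0.12, is wider than the distance of 0.0264. That closeness is therefore not resolved by the counts.

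Junb, on chr8:84974484-84978718 (minus strand), encodes a Jun protein with weaker transactivation that can oppose c-Jun. Its levels of 16.6 CPM in IKVAV PA + PEDOT-S, 14.5 CPM in IKVAV PA and 16.1 CPM in the PDL control (1299, 1807 and 1282 counts) spanned the narrowest range of the 5 genes lowest in IKVAV PA. The ratio of IKVAV PA to the PDL control was -0.15 (-0.25 to -0.05), that of IKVAV PA + PEDOT-S to the PDL control 0.04 (-0.07 to 0.16), and that between the scaffolds 0.19 (0.09 to 0.30).

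Jund, on chr8:70698949-70700616 (plus strand), is a single-exon gene whose protein is abundant in unstimulated cells. It had 68.6 CPM in IKVAV PA + PEDOT-S, 58.1 CPM in IKVAV PA and 57.0 CPM in the PDL control (5357, 7227 and 4532 counts). Here the IKVAV PA + PEDOT-S library stood above both others, while IKVAV PA and the PDL control did not differ beyond counting error (0.03, interval -0.03 to 0.08). IKVAV PA + PEDOT-S was at 0.27 (0.21 to 0.32) against the PDL control and 0.24 (0.19 to 0.29) against IKVAV PA. Of its exonic bases, 52.6% are shared with the antisense gene Gm11175, which had 0 counts in all 3 libraries.

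**Figure D2:**
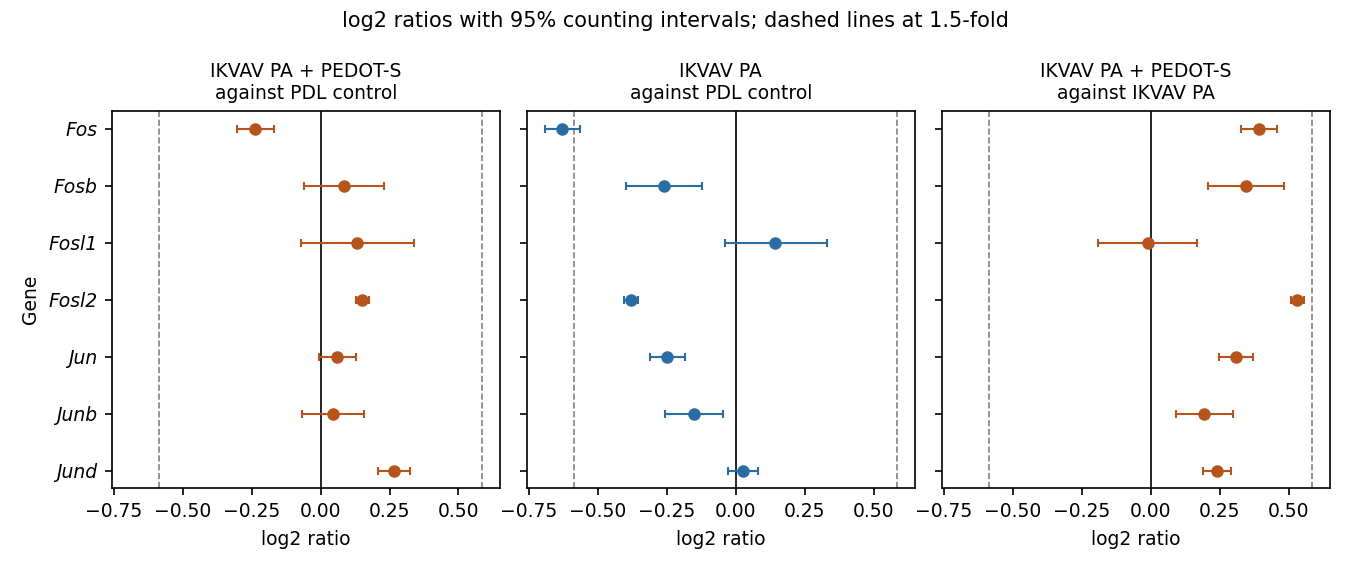
log2 ratios of scaled counts for the 7 AP-1 genes in the 3 comparisons, with 95% counting intervals and dashed lines at 1.5-fold. Against the PDL control 5 genes lie below 0 in IKVAV PA, between the scaffolds 6 lie above 0, and no interval lies wholly outside the dashed lines.

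Counted over the family, 5 of 7 members were lower and none higher beyond counting error in IKVAV PA than in the PDL control, where 28.9% of all genes were lower and 28.0% higher by that rule, together 57.0%, and the median log2 ratio was -0.25 against 0.00 for all genes. In IKVAV PA + PEDOT-S against the PDL control, 2 members were higher (Fosl2 and Jund) and 1 was lower (Fos), beside 28.6% and 28.5% of all genes and 57.1% in either direction, and the median was 0.08. Between the scaffolds 6 of 7 were higher with PEDOT-S and none lower, beside 31.4% and 28.5% of all genes and 59.9% in either direction, and the median was 0.31 against 0.01 for all genes. The first and the last of these comparisons share the IKVAV PA library, and the first and second share the PDL control, so they are not independent of each other. Whether a gene differs beyond counting error also depends on its number of counts. The shares of all genes by that rule, here and above, were not matched to the counts of the members. The members were also chosen with earlier results of these data known, so their counts beside such shares are no test.

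The promoters of the 5 genes that were lowest in IKVAV PA are shown so that their elements can be compared. RefSeq windows (GRCm38.p6) matched 6 of the 7 members, the exception being Fosl1. Each sequence is the 250 bases before the RefSeq start, 5′ to 3′ on the strand of the gene. Capitals mark TGACG (the core of the cyclic AMP response element), TATAA (the core of the TATA box) and TGACATCA (the element known from the Jun promoter). They are chr12:85473640-85473889 (plus) for Fos, chr7:19310046-19310295 (minus) for Fosb, chr5:32136222-32136471 (plus) for Fosl2, chr4:95052223-95052472 (minus) for Jun and chr8:84978749-84978998 (minus) for Junb.
Fos: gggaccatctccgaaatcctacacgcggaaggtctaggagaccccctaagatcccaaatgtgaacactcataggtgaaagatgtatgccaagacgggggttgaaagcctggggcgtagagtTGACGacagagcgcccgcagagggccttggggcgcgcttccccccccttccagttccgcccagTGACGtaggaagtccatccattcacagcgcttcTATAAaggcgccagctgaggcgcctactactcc
Fosb: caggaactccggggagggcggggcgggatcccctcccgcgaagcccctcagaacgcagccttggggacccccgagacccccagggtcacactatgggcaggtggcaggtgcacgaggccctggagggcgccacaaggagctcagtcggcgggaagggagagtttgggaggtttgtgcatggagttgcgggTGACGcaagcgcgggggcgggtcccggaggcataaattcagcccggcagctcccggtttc
Fosl2: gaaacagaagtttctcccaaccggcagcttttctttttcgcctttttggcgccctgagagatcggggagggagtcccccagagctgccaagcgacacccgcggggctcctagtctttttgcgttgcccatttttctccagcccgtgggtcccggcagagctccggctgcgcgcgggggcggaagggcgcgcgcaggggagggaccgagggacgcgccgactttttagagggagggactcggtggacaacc
Jun: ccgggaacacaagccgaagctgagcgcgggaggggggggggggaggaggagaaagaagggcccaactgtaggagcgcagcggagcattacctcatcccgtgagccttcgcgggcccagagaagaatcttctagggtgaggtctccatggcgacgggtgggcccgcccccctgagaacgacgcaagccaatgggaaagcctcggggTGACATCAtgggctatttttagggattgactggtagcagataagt
Junb: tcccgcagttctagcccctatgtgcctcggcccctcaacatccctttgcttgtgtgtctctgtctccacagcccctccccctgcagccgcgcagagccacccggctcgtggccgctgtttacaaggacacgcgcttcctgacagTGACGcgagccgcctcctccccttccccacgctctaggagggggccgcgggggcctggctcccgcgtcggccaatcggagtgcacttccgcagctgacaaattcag

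Fos holds TGACG at -129 and again at -66 from its start, the one at -66 being the well-studied calcium and cyclic AMP response element, and TATAA at -33. Fosb holds TGACG at -60 and Junb at -106, and Jun holds TGACATCA at -45. None of the capital motifs is in the Fosl2 window, whose RefSeq start lies 671 bases from the GENCODE gene start. Searched on both strands, TGACG was in 3 of the 6 member windows and in 17.8% of all 32851 windows of this length, TATAA in 1 of 6 and 22.8%, and TGACATCA in 1 of 6 and 2.93%. Not found in any of the 6 were the full element TGACGTCA (1.55% of all windows, each of which also counts under TGACG), the TPA response element TGANTCA (6.75%) and the CArG box (1.47%). The GC box GGGCGG was in 4 of 6 (32.7% of all windows) and CCAAT in 2 of 6 (33.8%). A match is a run of letters and not a shown binding site, and elements outside these windows were not searched. The Jund window, which lies 1210 bases from the GENCODE start, is counted among the 6 but not shown. It held none of the motifs searched, and whether it covers the Jund promoter was not tested.

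Levels were compared between members only per kilobase of exon. Over all annotated exons the order was the same in each of the 3 libraries, Jund first, then Fosl2, Fos, Jun, Junb, Fosl1 and Fosb, and no neighbours in it had overlapping counting intervals. Jund had 41.1 CPM per kilobase in IKVAV PA + PEDOT-S, 34.8 in IKVAV PA and 34.2 in the PDL control. Fosl2 had 35.4, 24.5 and 31.9, and Fos 18.1, 13.8 and 21.3, while Fosb stayed between 1.28 and 1.63. The place of Fos in the mixture was largest in the PDL control, at 18.9% of the summed level of the 7 genes, against 14.9% in IKVAV PA + PEDOT-S and 14.4% in IKVAV PA. The 4 Fos family genes together made up 47.8% of the sum in IKVAV PA + PEDOT-S, 44.3% in IKVAV PA and 50.8% in the PDL control, and the 3 Jun genes the rest.

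These shares rest on the length chosen. With the longest annotated transcript in place of all exons, Fosl2 came before Jund, with a mean share of 34.9% over the 3 libraries in place of 27.8%. Without exonic bases shared with another gene, Jund had a mean share of 49.9% in place of 33.7%, and Fosl1 one of 3.86% in place of 2.35%. That last length bears on how the reads were counted. Of 43 antisense RNA genes that lie wholly within exons of genes on the other strand with at least 10 CPM, none had a count in any library, whereas 72.6% of 1142 antisense RNA genes with no shared base had at least 1. Whether reads over shared bases were left out of the counts of Jund and Fosl1 too was not tested, and if they were, levels per kilobase of all exons understate both genes. Under all 3 lengths the Fos family share was lowest in IKVAV PA and highest in the PDL control, and it ranged between 32.9% and 57.0%.

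**Figure D3:**
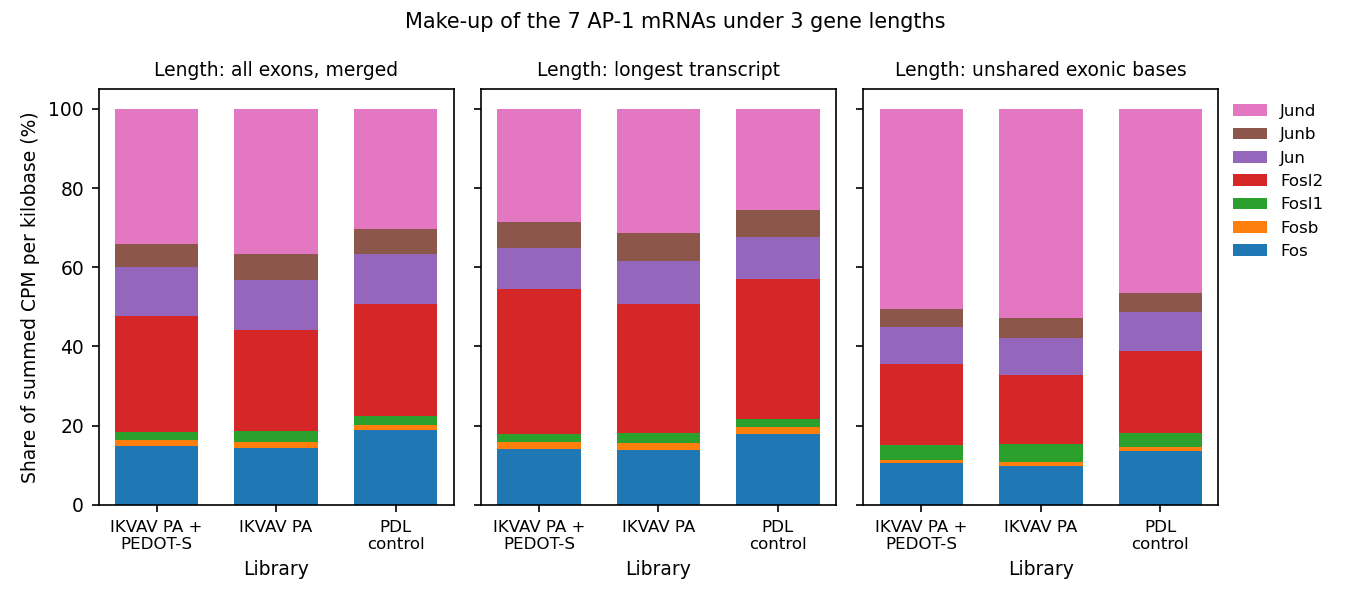
Share of each AP-1 gene in the summed CPM per kilobase of the 7 genes, for IKVAV PA + PEDOT-S, IKVAV PA and the PDL control, under 3 definitions of gene length. Jund and Fosl2 are the largest blocks in each bar, and Jund reaches a mean of 49.9% when shared exonic bases are left out.

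The nearest profiles over the 3 libraries were sought among 8048 other protein-coding genes at 10 CPM or more, 8049 in the case of Jund. With 3 points per gene such likeness is a description of these libraries and says nothing of shared control. The distances also take no account of counting error. Nearest to Fos were Pcsk1, a prohormone convertase (distance 0.0166, at 28.2 CPM in IKVAV PA + PEDOT-S, 21.3 in IKVAV PA and 33.5 in the PDL control), Etv5, an ETS factor (0.0359), and Wls, needed for Wnt secretion (0.0371), and 13 genes lay within 0.1. Nearest to Fosl2 were Tacr3, the neurokinin B receptor (0.0325), Scd1, a fatty acid desaturase (0.0393), and Klf9 (0.0493), with 12 genes within 0.1. More genes lay near Jun, Jund and Junb, while Fosb and Fosl1, under 10 CPM on average, were not searched. Within 0.1 of Jun lay 239 genes, led by Nup93, Ndufa1 and Pmvk. Within 0.1 of Jund lay 688, led by Mpst, Csrp2 and Vapa, and within 0.1 of Junb 1501, led by Snrpd1, Chmp6 and Hspa9.

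Other bZIP proteins pair with Fos or Jun. Of 13 listed partners 10 were measured, and none lay past the 1.5-fold bound in any comparison, where 2.35% to 4.21% of all genes did, so 0 of 10 is no result about them. Their median log2 ratios were 0.11 for IKVAV PA + PEDOT-S against the PDL control, -0.06 for IKVAV PA against the PDL control and 0.21 between the scaffolds. Atf3, a stress-induced partner of Jun, was weakly expressed at 1.33 CPM with PEDOT-S and 0.885 CPM in IKVAV PA (0.58, interval 0.19 to 0.99). Maff, a small Maf protein, stood at 6.39 CPM in IKVAV PA against 8.53 CPM in the PDL control (-0.42, interval -0.57 to -0.27). The larger Maf protein gene Maf had 90.4 CPM in IKVAV PA + PEDOT-S and 68.8 CPM in the PDL control (0.39, interval 0.34 to 0.45). Atf4, a factor of the integrated stress response that was chosen after its values were seen, had 328 CPM in IKVAV PA + PEDOT-S, 228 CPM in IKVAV PA and 250 CPM in the PDL control. Its ratio was 0.39 with PEDOT-S against the PDL control (0.36 to 0.42) and 0.53 between the scaffolds (0.50 to 0.55), about that of Fosl2 between the scaffolds.

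All 16 MAP kinase cascade genes upstream of AP-1 were measured. None passed the bound, which is near the background of 2.35% to 4.21% of all genes and no result about them, with medians of 0.01, 0.00 and 0.03 in the same order of comparisons. Rps6ka1, an RSK kinase downstream of ERK, was furthest out against the PDL control, at 0.49 with PEDOT-S and 0.47 without, and Map2k2, the kinase MEK2, between the scaffolds, at 0.15. Of 17 factors that act on the Fos promoter or its enhancers, 1 passed the bound, with PEDOT-S against the PDL control, where 4.21% of all genes did, so the count is near the background. The gene was Elk3, an SRF partner, at 1.70 CPM in IKVAV PA + PEDOT-S, 2.07 CPM in IKVAV PA and 3.64 CPM in the PDL control (-1.08, interval -1.40 to -0.79 with PEDOT-S against the PDL control). Elk3 is also expressed by endothelial cells, and endothelial markers (3 of 6 measured) summed to 3.35, 4.04 and 6.42 CPM in the same libraries. The meningeal fibroblast and dividing cell sums given above were likewise lowest in IKVAV PA + PEDOT-S and highest in the PDL control. The part of any of these cells in the values of Elk3 was not tested. None of 8 genes acting on AP-1 protein stability or kinase input passed the bound, again near the background. The MAP kinase phosphatase genes were furthest out, Dusp6 at -0.51 in IKVAV PA against the PDL control, Dusp4 at -0.26 in IKVAV PA + PEDOT-S against the PDL control and Dusp1 at 0.35 between the scaffolds.

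Of 19 other immediate early genes, all measured, 17 had a negative ratio in IKVAV PA against the PDL control, 12 a positive one in IKVAV PA + PEDOT-S against the PDL control and 17 a positive one between the scaffolds. Their medians were 0.08 for IKVAV PA + PEDOT-S and -0.34 for IKVAV PA, each against the PDL control, and 0.37 between the scaffolds, beside 0.08, -0.25 and 0.31 for the 7 members and a median within 0.01 of 0 for all genes. Likeness between the lists was not tested, and single genes differed. Both lists were chosen with earlier results of these data known. Past the bound was 1 of 19 in IKVAV PA against the PDL control, where 3.96% of all genes were, and 1 of 19 between the scaffolds, where 2.35% were. These were Btg2, an antiproliferative gene that is also a p53 target (6.14 CPM in IKVAV PA against 11.7 CPM in the PDL control), and Ptgs2, the inducible cyclooxygenase (1.24 CPM in IKVAV PA + PEDOT-S against 0.442 CPM in IKVAV PA). Ptgs2 reached 1 CPM in the IKVAV PA + PEDOT-S library alone, so the filter kept it through the library where it was high. Egr1 was furthest out with PEDOT-S against the PDL control, at -0.48 (-0.59 to -0.38), within the bound.

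Genes described as AP-1 targets outside neurons were mostly lower in both scaffold libraries than in the PDL control. The list was chosen with earlier results of these data known. Its counts, here and in the next paragraph, are therefore no test against the shares of all genes. Of 20 listed, 10 were measured, and Mmp3, Mmp9, Mmp10, Mmp13, Plau, Plaur, Timp1, Il6, Ccl2 and Lif stayed under 1 CPM in every library. In IKVAV PA + PEDOT-S against the PDL control 7 of 10 were lower past the bound, where 3.76% of all genes were lower, and the median was -1.56. Cd44, a hyaluronan receptor, had 0.986 CPM in IKVAV PA + PEDOT-S, 2.41 CPM in IKVAV PA and 7.47 CPM in the PDL control. Spp1 (osteopontin) was at -3.24 with PEDOT-S against the PDL control, from 17 and 180 counts, and shares 18.8% of its exonic sequence. Tgfb1, a growth factor, was at -2.99 there, from 9 and 87 counts. It reached 1 CPM in the PDL control alone, so the filter kept it through the library where it was high, and it is 1 of the 7 called.

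In IKVAV PA against the PDL control 7 of 10 were lower as well, beside 3.42% of all genes, with a median of -0.88. Tgfb1, which the filter kept through the PDL control alone, is again 1 of the 7 called. Gja1, the astrocyte gap junction protein connexin 43, was at -1.30 there and Ccnd1, cyclin D1 with 23.4% of its exonic bases shared, at -0.94. Between the scaffolds 5 of 10 were lower with PEDOT-S, beside 2.02% of all genes, with a median of -0.48. The fibroblast, astrocyte and dividing cell marker sums given above were lower in both scaffold libraries too, and their part in these target genes was not tested. Gja1 is in the target list and in the astrocyte sum, so these are not separate observations for that gene.

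Of 8 genes described as Fos or FosB targets in rodent neurons, all were measured. This list was also chosen with earlier results of these data known, so its counts are no test against the shares of all genes. Nptx2, Bdnf and Scg2 were lower past the bound in IKVAV PA than in the PDL control, with 1.85-fold, 1.74-fold and 1.55-fold differences (14.4% of the exonic bases of Bdnf are shared), which is 3 of 8 beside 3.42% of all genes. Pdyn, the dynorphin precursor, was lower past the bound in IKVAV PA + PEDOT-S than in the PDL control, at 0.883 CPM against 1.82 CPM, or 1 of 8 beside 3.76% of all genes. Nptx2 was higher past the bound with PEDOT-S than in IKVAV PA, at 20.3 CPM against 10.3 CPM, or 1 of 8 beside 0.331% of all genes. The median ratio of the 8 genes was -0.21 for IKVAV PA + PEDOT-S and -0.34 for IKVAV PA, each against the PDL control, and 0.08 between the scaffolds. In the same order, 2, 2 and 5 of the 8 ratios were positive and 6, 6 and 3 negative.

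**Figure D4:**
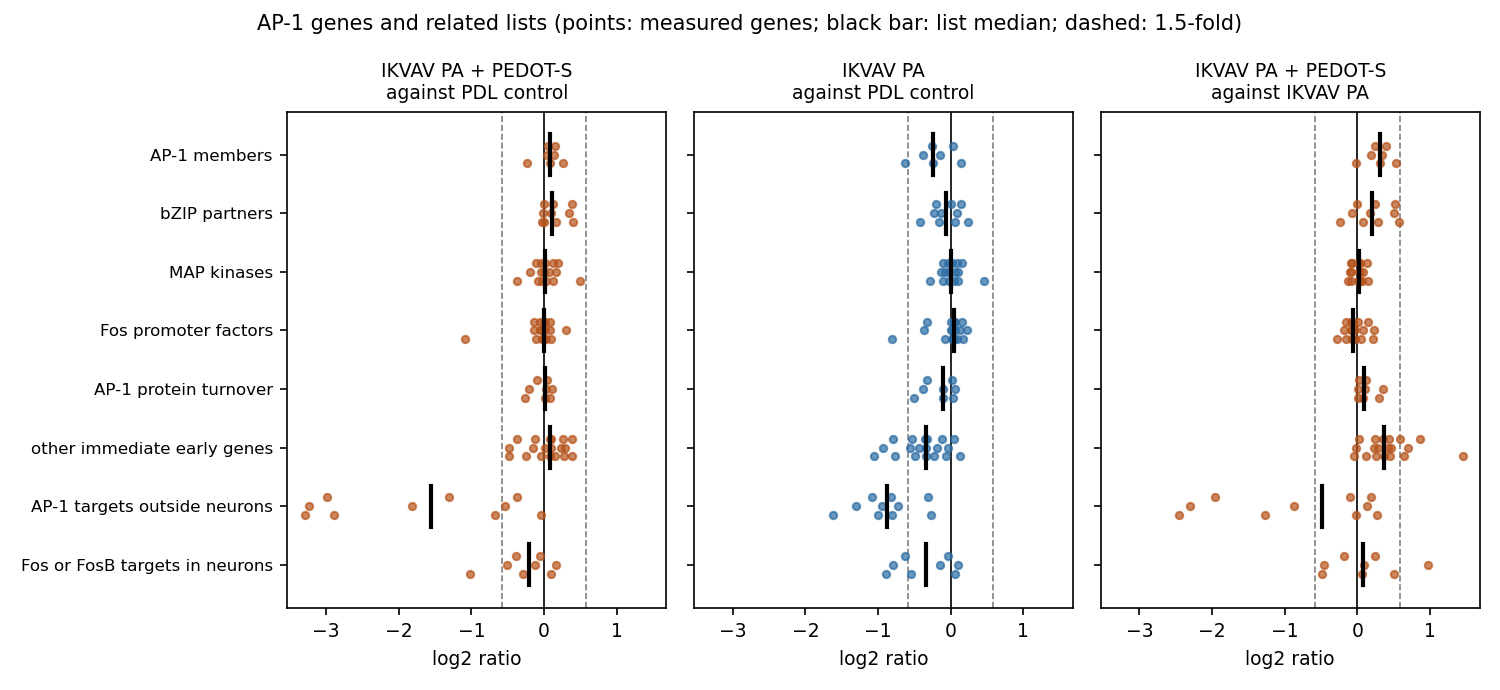
log2 ratios of the measured genes of each list in the 3 comparisons (points), with the list median as a black bar and dashed lines at 1.5-fold. The medians of the AP-1 genes and of the other immediate early genes are below 0 in IKVAV PA against the PDL control and above 0 between the scaffolds, with single genes on the other side of 0, and the medians of AP-1 targets outside neurons are below 0 in each panel.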

How the data were processed

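Per library, 1 deposited file gives read counts by gene as whole numbers, with no normalisation. Per the submitters' processing notes, the authors used build mm10 with HTSeq 2.0.2, STAR 2.7.5, DESeq2 1.14.1 and cutadapt 4.2. The role of each, the annotation and the strand setting are not stated there. The labels name polyA RNA as the molecule and a total RNA library kit.

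GENCODE M21 (GRCm38) supplied symbols, coordinates and exon lengths for 54165 of 54232 identifiers. Genes with at least 1 CPM in at least 1 library were kept (13884, all 7 members among them). Their counts were scaled by TMM in edgeR 4.0.16 under R 4.3.3, with factors of 0.990 for IKVAV PA + PEDOT-S, 1.00 for IKVAV PA and 1.01 for the PDL control. Each log2 ratio (prior count 2) has an exact Clopper-Pearson 95% counting interval. These intervals cover counting error only. As reads carry no molecular identifiers and can be copies of 1 molecule, the intervals may be too narrow even for that. A gene lay past the bound when its whole interval lay beyond 1.5-fold, and differed beyond counting error when the interval left out no difference.

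The calculation was tested on simulated data. The members and lists were chosen with earlier results of these data known. Named list genes are up to 4 past the bound per comparison, otherwise the one furthest out, and 3 nearest profiles per member averaging at least 10 CPM, with at most 10% shared exonic bases. A named list gene is not reported here. Promoter sequences are from RefSeq. The alternatives tried were other filters, total counts, size factors of DESeq2 1.42.0, a 2-fold bound, thinned libraries, scaling on protein-coding genes and other gene lengths.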

Additional observations from a re-analysis of the deposited data

How the results depend on the processing

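With 1 library per group no result has a replicate check. The groups share a repeat number, but with 1 library each no paired analysis was possible. The count of members past the bound stayed at 0 in each comparison under all 7 alternatives run. Under the 2-fold bound that was fixed in advance. Of 105 recomputed log2 ratios of members, all 105 kept their sign. With total counts and no factor, Fosl2 in IKVAV PA + PEDOT-S against the PDL control came to 0.12. Without a filter, 4 members in place of 3 differed beyond counting error in that comparison.

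Shares of the summed level per kilobase depended on the length, and the unshared length was chosen after seeing the data. With the longest transcript the mean shares were 1.89% for Fosb, 34.9% for Fosl2, 10.6% for Jun, 6.77% for Junb and 28.5% for Jund. With unshared bases they were 11.4% for Fos, 0.953% for Fosb, 3.86% for Fosl1, 19.6% for Fosl2, 9.48% for Jun, 4.78% for Junb and 49.9% for Jund.

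Counts of list genes past the bound were recomputed as an addition after seeing the data. Under a 2-fold bound, AP-1 targets outside neurons came to 2 in place of 7 in IKVAV PA against the PDL control and to 3 in place of 5 between the scaffolds, and the other immediate early genes to 0 in place of 1 in both. The neuronal targets came to 0 in place of 3 in IKVAV PA against the PDL control, and to 0 in place of 1 in the other comparisons, as did Elk3. With a filter at 5 CPM, Elk3, Pdyn and Ptgs2 were no longer kept, and 3 of the targets outside neurons in place of 5 were counted between the scaffolds. Without a filter, 11 of those targets in place of 7 passed the bound with PEDOT-S against the PDL control, and with thinned libraries 2 other immediate early genes in place of 1 passed between the scaffolds.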
